A study of Mus musculus with 9 samples.

Results

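Collagens are the trimeric proteins that give connective tissue its strength, and each gene described here encodes 1 alpha chain of such a trimer. The set was defined as every gene whose symbol in the array platform's annotation is Col, a type number, the letter a and a chain number. This rule found 42 genes among the 19505 gene symbols measured, and it used no expression value. Each of the 42 was represented by a single transcript cluster, the probe group that stands for a gene's transcripts on the array. By the structure of their products, 11 are fibrillar, 8 belong to the basement membrane, 8 are fibril-associated and 15 are of other types.

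Female C57BL6/J mice, 12-week-old by the labels, gave the tissue, which was the submandibular salivary gland. Glands were taken 3 days after mock surgery, 3 days after partial resection of the gland, or 14 days after partial resection, with 3 biological replicates in each group and 1 array for each replicate. Mock glands were taken on day 3 only, so at day 14 resection and time since surgery cannot be told apart. The labels do not say whether an array held RNA of 1 animal or of several.

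Fibrillar collagens assemble into the banded fibrils of stroma. Type I is the main one, type III lies beside it in pliable tissue and early repair, and type V is incorporated into type I fibrils and regulates their diameter. Type IV chains form the sheet-like network of basement membranes under epithelium and around vessels, where types XV and XVIII, the multiplexins, also reside. Fibril-associated collagens coat fibril surfaces, and the remaining types form beaded filaments (type VI), short-chain networks (VIII and X) or span the cell membrane (XIII, XVII, XXIII and XXV). In glands, stromal fibroblasts are the usual source of fibrillar chains, while epithelial, endothelial and smooth muscle cells also make basement membrane chains. In whole-gland RNA, more cells of a type and more RNA per cell cannot be told apart.

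Values are log2 expression as deposited, and differences are log2 differences on that scale with their standard error (SE). They are not calibrated fold changes. A gene was called changed where the p-value of limma, a linear model fitted to all 22206 transcript clusters and adjusted by the method of Benjamini and Hochberg, was under 0.05. Array medians ran from 5.09 to 5.24, and arrays of 1 group correlated at 0.985 to 0.99 across clusters. Aqp5, Klk1, Egf and Bhlha15, known products of this gland, had a lowest percentile on any array of 96.8, 99.9, 91.6 and 94.7. Collagen values ranged from 2.48 to 16.1, and the highest value of any tested cluster was 19.9. Saturation of the arrays was not tested. Of the 42 chains, 17 had a mean over all arrays below the median of the array's negative control probes (4.56), which limits what can be read from them. Only 5 chains had such a mean above the 95th percentile of these probes (7.99), namely Col1a1, Col1a2, Col3a1, Col6a2 and Col6a3. The remaining chains lay within the range of the negative controls, so the limit bears on them as well.

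On day 3 after resection, chains of the main stromal fibrils were far higher than after mock surgery, and no chain outside the fibrillar class was called. The 5 chains that rose were Col1a1, Col1a2, Col3a1, Col5a1 and Col5a2, and they make up collagen types I and III and the usual heterotrimer of type V. They were 5 of 42 members (11.9%), against 4.92% of all clusters called higher, and 0 members were called lower, against 1.36% of all clusters (6.27% in either direction). All 5 belong to the fibrillar class, of which 5 of 11 members were called. In the other classes limma called 0 of 8 basement membrane, 0 of 8 fibril-associated and 0 of 15 other chains, with 1, 0 and 3 of them at an unadjusted p under 0.05. Over the whole set 9 members had an unadjusted p under 0.05, 7 higher and 2 lower (21.4% against 18.6% of all clusters). Scaling bears on the split over all clusters, with 1092 higher and 301 lower as deposited, 973 and 452 after quantile normalization and 1013 and 480 after centring on array medians. Without day 3 resected replicate 3, 850 clusters were called in either direction in place of 1393.

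Promoter sequences are shown for Col1a2, Col3a1 and Col5a1, the rising chains with a matched entry, because these genes moved together, and Col1a1 and Col5a2 were not matched. RefSeq entries of build GRCm38.p6 were matched by symbol for 34 of the 42 members (37 start sites), and the 250 bases before the start are printed for Col1a2 (chr6:4505368-4505617, plus strand), Col3a1 (chr1:45311288-45311537, plus strand) and Col5a1 (chr2:27886175-27886424, plus strand). Capitals mark 3 motifs searched on both strands, which are TATAAA from the TATA box, CCAAT from the promoter box of that name and GGGCGG from the GC box. Where the match is on the other strand, GGGCGG reads CCGCCC here. The motifs do not overlap each other in the 3 windows.
Col1a2: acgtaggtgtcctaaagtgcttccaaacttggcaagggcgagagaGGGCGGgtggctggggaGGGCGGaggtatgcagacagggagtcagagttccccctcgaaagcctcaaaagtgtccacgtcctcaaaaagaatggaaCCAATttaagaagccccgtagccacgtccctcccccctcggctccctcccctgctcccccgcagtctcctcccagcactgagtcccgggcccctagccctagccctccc
Col3a1: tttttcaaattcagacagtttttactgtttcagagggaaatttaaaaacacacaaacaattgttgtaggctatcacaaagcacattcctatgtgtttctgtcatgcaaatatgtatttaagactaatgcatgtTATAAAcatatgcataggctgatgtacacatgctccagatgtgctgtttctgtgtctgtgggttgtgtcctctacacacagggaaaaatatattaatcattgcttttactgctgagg
Col5a1: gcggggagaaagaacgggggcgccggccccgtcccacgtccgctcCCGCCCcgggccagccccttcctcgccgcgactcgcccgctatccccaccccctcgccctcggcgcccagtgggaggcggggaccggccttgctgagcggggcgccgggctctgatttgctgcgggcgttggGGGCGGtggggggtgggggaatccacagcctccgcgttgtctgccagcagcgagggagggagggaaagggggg
None of the 3 motifs occurs in all 3 windows, while GGGCGG occurs in those of Col1a2 and Col5a1. Col1a2 holds CCAAT once, 109 bases before the start, and GGGCGG at 188 and 205 bases. Col3a1 holds TATAAA once, at 117 bases, and Col5a1 holds GGGCGG at 73 bases and, on the other strand, at 205. Over the 37 start sites of collagen members, TATAAA occurred in 13.5%, CCAAT in 32.4% and GGGCGG in 56.8%, beside 12.4%, 33.8% and 32.7% of 32851 promoters in the table. A match is a match of letters and not evidence of binding.

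Col1a1, which encodes the chain present in 2 copies in each type I trimer, read 7.29, 7.81 and 6.95 in mock, 10.83, 13.06 and 13.53 in day 3 resected and 9.42, 8.34 and 7.91 in day 14 resected glands (replicates 1 to 3 in each case). All day 3 resected arrays exceeded all mock and all day 14 arrays, and replicate 1 was the lowest of the day 3 resected arrays. The rise on day 3 was 5.12 ± 0.58 (limma adjusted p = 0.00019), which ranked 13th among all clusters. Its partner Col1a2 read 8.57, 8.80 and 8.71 in mock, 11.61, 13.06 and 13.83 in day 3 resected and 10.00, 9.45 and 9.44 in day 14 resected glands. The mock arrays differed little for Col1a2 (SD 0.12, n = 3), and the 3 groups did not overlap. Col1a2 rose by 4.14 ± 0.42 (limma adjusted p = 8.66e-05).

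Col3a1 encodes the single chain of type III collagen and had the highest mean level of the 42 chains (12.8, at percentile 95.4 of all clusters). It read 10.49, 10.86 and 10.66 in mock, 14.39, 15.56 and 16.14 in day 3 resected and 13.17, 12.24 and 11.73 in day 14 resected glands. The 3 groups did not overlap with each other for this gene. The rise on day 3 was 4.69 ± 0.42 (limma adjusted p = 3.02e-05), the 18th largest of all clusters.

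Type V collagen has 3 chains, and not all of them were called on day 3. Col5a2 read 5.06, 5.29 and 5.37 in mock, 6.82, 8.99 and 8.08 in day 3 resected and 6.71, 6.38 and 5.95 in day 14 resected glands, with a day 3 rise of 2.72 ± 0.42 (limma adjusted p = 0.00161). Col5a1 was dim, at 3.55, 3.24 and 2.63 in mock, 4.24, 5.32 and 5.23 in day 3 resected and 3.19, 3.25 and 2.99 in day 14 resected glands, and rose by 1.79 ± 0.31 (limma adjusted p = 0.00349). Its mock and day 14 values lay below the negative control median. Col5a3, the chain of a rarer type V trimer, read 3.58 to 4.17 in mock and 3.72 to 4.06 in day 3 resected glands, a difference of -0.07 ± 0.23 (95% interval -0.57 to 0.43). Within each array, Col5a1 minus Col5a3 was -1.44 to -0.33 in mock and 0.41 to 1.59 in day 3 resected glands, so the groups did not overlap for this difference of levels either. The same held for Col5a2 minus Col5a3, at 0.89 to 1.71 in mock and 2.99 to 5.27 in day 3 resected glands. Col5a1 and Col5a2 were picked by their rise on these same arrays, so both results are descriptions and add no support. In an exact two-sided permutation test of 3 against 3 arrays, both pairs had p = 0.1, the lowest it can give (adjusted p = 0.4875). The mean of Col5a3 (3.87) also lay below the negative control median.

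**Figure D1:**
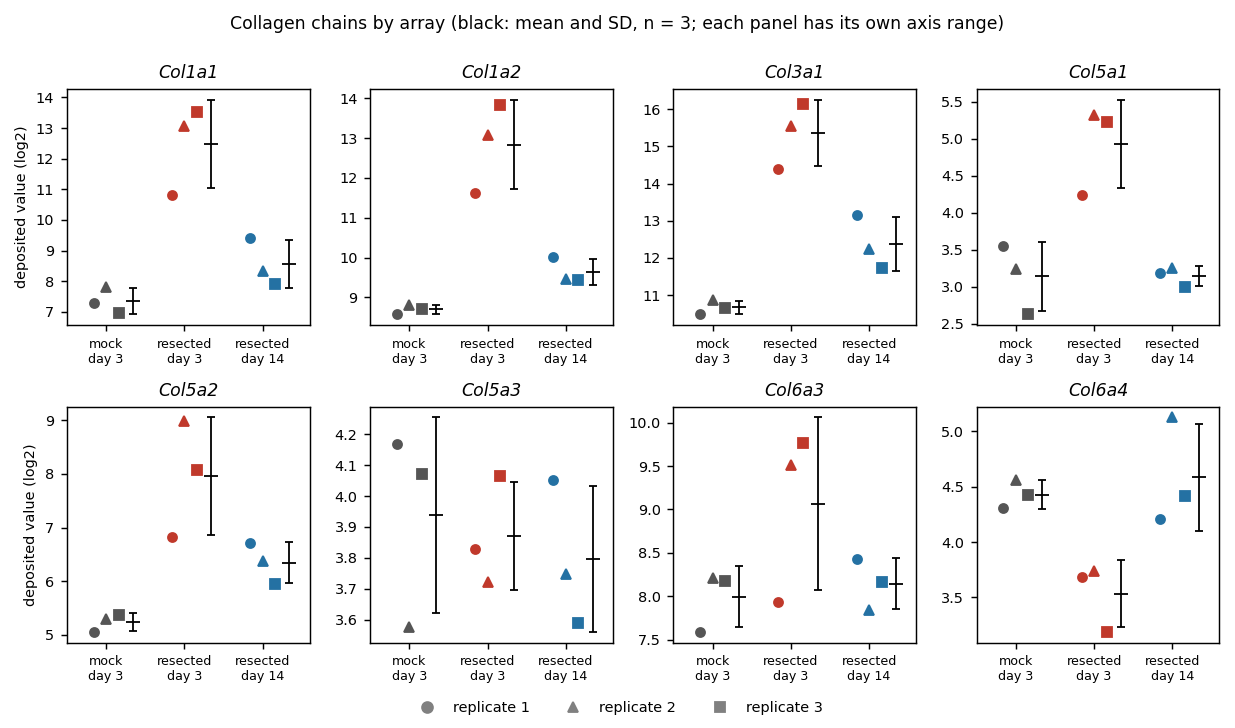
Deposited log2 values of 8 collagen chains on each array, by group (x axis), with replicate numbers as symbols and the mean and SD of 3 arrays in black; each panel has its own axis range. Col1a1, Col1a2, Col3a1, Col5a1 and Col5a2 are highest on the day 3 resected arrays, with replicate 1 the lowest of those 3, whereas Col5a3 overlaps between groups and Col6a4 is lowest on day 3.

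The other 5 fibrillar genes are those of cartilage-type fibrils (Col2a1, Col11a1 and Col11a2) and of types XXIV and XXVII, and limma called 0 of them, with 0 at an unadjusted p under 0.05. Their day 3 differences ran from -0.30 ± 0.22 for Col11a2 to 0.48 ± 0.37 for Col27a1, with Col2a1 at -0.20 ± 0.25, Col11a1 at -0.14 ± 0.30 and Col24a1 at 0.11 ± 0.26. Of the 6 fibrillar chains not called, Col5a3 included, 5 had a 95% interval within 1 log2 unit of 0, and 4 had a mean below the negative control median. The class median was 0.48, beside -0.06 over all clusters, and no chain of the class lay between 0.48 and 1.79.

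Basement membrane chains showed no called difference on day 3, with a median of 0.03 over 8 members. Col4a1 and Col4a2 encode the 2 chains of the type IV trimer found in nearly all basement membranes and are neighbours on chromosome 8. Col4a1 read 4.56, 4.19 and 5.74 in mock, 4.59, 4.48 and 5.14 in day 3 resected and 4.74, 5.06 and 4.72 in day 14 resected glands, and Col4a2 read 6.46, 6.89 and 6.66, then 6.44, 7.51 and 6.96, then 6.40, 6.13 and 6.84. The groups overlapped for both, with day 3 differences of -0.09 ± 0.35 (95% interval -0.84 to 0.66) and 0.30 ± 0.29 (-0.32 to 0.92). Both upper bounds lie below the lower bounds of the 5 called fibrillar chains, of which the lowest is 1.12 for Col5a1. Those 5 were picked by their values in this same comparison, so this is a description and no test of a difference between classes.

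The remaining type IV chains build the networks of more specialised basement membranes. Col4a3 had the lowest difference of the class, at -0.77 ± 0.32 (adjusted p = 0.21), and Col4a4, its neighbour on chromosome 1, differed by -0.40 ± 0.21 (adjusted p = 0.33) with groups that did not overlap. Groups did not overlap for 9 of the 42 members on day 3, where the share over all clusters was 23%. The X-linked neighbours Col4a5 and Col4a6 differed by -0.00 ± 0.34 and 0.06 ± 0.23. Col15a1 and Col18a1, whose products carry endostatin-type domains, differed by 0.32 ± 0.37 and 0.23 ± 0.29, and Col18a1 had the highest mean of the class (7.73).

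Fibril-associated chains were likewise not called. Their median day 3 difference was 0.06 over 8 members, and all 8 had a 95% interval within 1 log2 unit of 0. Col14a1, whose product binds fibril surfaces, had the highest difference (0.39 ± 0.25) and Col19a1 the lowest (-0.21 ± 0.22). Col16a1 had the highest mean level (7.05) and differed by -0.13 ± 0.22. Col9a1, Col9a2 and Col9a3, the chains of the cartilage collagen type IX, differed by -0.06, 0.07 and 0.10. Col20a1 and Col22a1 differed by 0.05 ± 0.23 and 0.14 ± 0.27.

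Among the other types, the type VI chains had the widest range of differences. Type VI collagen forms beaded microfilaments near cells, and its classical trimer contains the products of Col6a1, Col6a2 and Col6a3. Col6a3 read 7.59, 8.21 and 8.18 in mock, 7.93, 9.51 and 9.76 in day 3 resected and 8.43, 7.84 and 8.16 in day 14 resected glands. Its day 3 resected replicate 1 lay among the mock values and the other 2 lay above them, and the difference of 1.07 ± 0.40 was not called (adjusted p = 0.16). Without that array it was 1.64 (limma adjusted p = 0.00407). Col6a2 differed by 0.99 ± 0.34 (adjusted p = 0.13) with groups that did not overlap, and Col6a1 by 0.48 ± 0.36 (adjusted p = 0.54).

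Col6a4, Col6a5 and Col6a6 are neighbours on chromosome 9 and encode chains that are related to that of Col6a3. Col6a4 read 4.30, 4.56 and 4.42 in mock, 3.68, 3.74 and 3.19 in day 3 resected and 4.21, 5.13 and 4.41 in day 14 resected glands, so every day 3 resected array lay below every other array. The day 3 difference of -0.89 ± 0.26 missed the threshold (limma adjusted p = 0.0677), and was called after centring on array medians (-0.97, limma adjusted p = 0.0398) and without day 14 resected replicate 2 (-0.89, limma adjusted p = 0.0367). Col6a5 differed by -0.16 ± 0.26 and Col6a6 by 0.62 ± 0.48. Levels of Col6a4 to Col6a6 were near or below the negative control median.

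Chains of the remaining types were not called. Col28a1, a relative of type VI, differed by -0.01 ± 0.22, and the short-chain network genes Col8a1, Col8a2 and Col10a1 by 0.18 ± 0.27, 0.24 ± 0.28 and -0.06 ± 0.23. Of the membrane-spanning chains, Col17a1, a component of hemidesmosomes in basal epithelial cells, differed by -0.19 ± 0.21 with groups that did not overlap, Col13a1 by -0.39 ± 0.29, Col25a1 by -0.15 ± 0.24 and Col23a1 by 0.55 ± 0.28. Col26a1 differed by -0.08 ± 0.27. The class of other types had a median of -0.01 over 15 members.

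**Figure D2:**
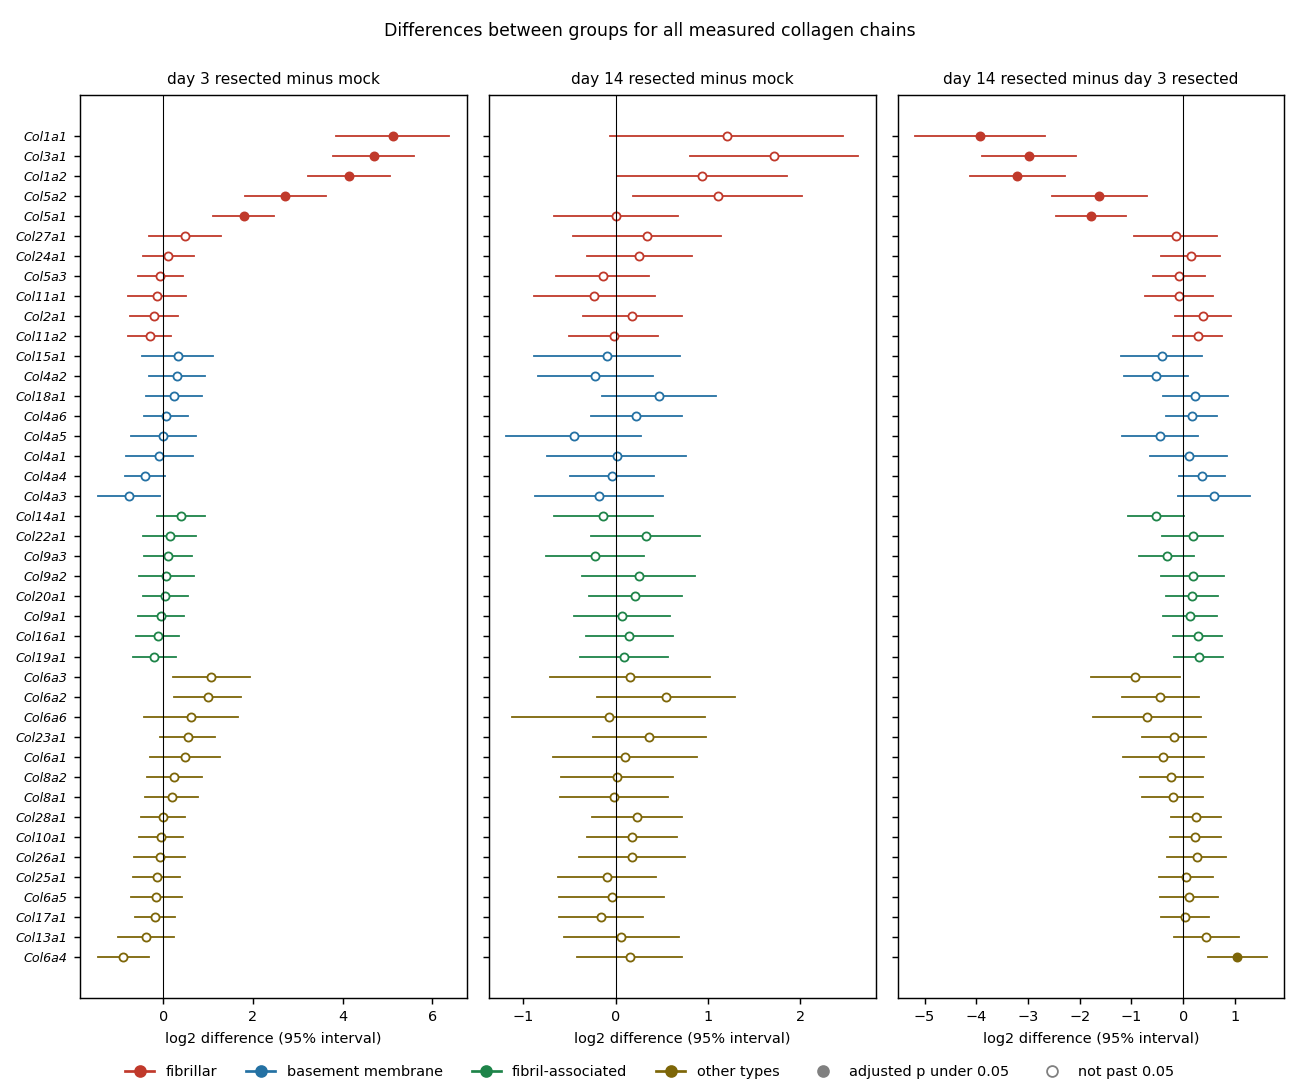
Log2 differences of all 42 chains in the 3 comparisons, with 95% intervals; colours give the class and filled points an adjusted p under 0.05. On day 3 the filled points are 5 fibrillar chains between 1.79 and 5.12, on day 14 against mock there is none, and between the days the same chains lie between -3.92 and -1.62 with Col6a4 at 1.05.

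On day 14, limma called 0 of 42 chains against mock, where 0.153% of all clusters were called in either direction (0.0991% higher and 0.054% lower). These were 34 clusters, and 58 without mock replicate 3, 20 without day 14 resected replicate 2 and 22 without day 14 resected replicate 3. At an unadjusted p under 0.05 there were 3 members, all higher (7.14% against 8.18% of all clusters). These were Col3a1 at 1.71 ± 0.42 (adjusted p = 0.22), Col5a2 at 1.10 ± 0.42 (adjusted p = 0.53) and Col1a2 at 0.93 ± 0.42 (adjusted p = 0.60). Col1a1 differed by 1.20 ± 0.58 (adjusted p = 0.63). For these 4 chains every day 14 array lay above every mock array, and no other member had groups that did not overlap in this comparison (4 of 42, beside 13% of all clusters). Col5a1 had a mean of 3.14 ± 0.14 on day 14 and 3.14 ± 0.47 in mock (mean ± SD, n = 3; difference 0.00 ± 0.31). All these values lie below the negative control median, so they do not show whether its level returned to that of mock glands.

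The class medians on day 14 were 0.26 for fibrillar, -0.07 for basement membrane, 0.12 for fibril-associated and 0.10 for other chains, beside 0.00 over all clusters. Col18a1 had the highest difference outside the fibrillar class after Col6a2 (0.47 ± 0.29 and 0.54 ± 0.34), and Col4a5 the lowest of all (-0.45 ± 0.34). Of the 42 chains, 32 had a 95% interval within 1 log2 unit of 0. The intervals with the highest upper bounds were those of Col3a1 (0.80 to 2.62) and Col1a1 (-0.06 to 2.46). In all alternatives run for this comparison, limma called 0 of the collagen members.

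Comparing day 14 with day 3 after resection asks whether the difference from day 3 mock glands changed, since the mock arrays cancel. It cannot show a change against mock glands of the same day, because day 14 has none. This comparison shares its arrays with the other 2 comparisons. The 5 chains that were high on day 3 were lower on day 14, and 1 chain was higher. Called lower were 5 of 42 members (11.9%, against 4.88% of all clusters) and called higher 1 (2.38%, against 1.4%), beside 6.28% of all clusters in either direction. Without day 3 resected replicate 3, 874 clusters were called in place of 1394. Over all clusters 310 were higher and 1084 lower as deposited, 433 and 930 after quantile normalization, and 431 and 1031 after centring on array medians. Col1a1 fell by 3.92 ± 0.58 (limma adjusted p = 0.00102), Col1a2 by 3.20 ± 0.42 (limma adjusted p = 0.000393) and Col3a1 by 2.98 ± 0.42 (limma adjusted p = 0.000685). Col5a1 fell by 1.78 ± 0.31 (limma adjusted p = 0.00317) and Col5a2 by 1.62 ± 0.42 (limma adjusted p = 0.0383). The groups did not overlap for any of the 5, as for 8 of the 42 members in all, beside 25.4% of all clusters.

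Col6a4 was the chain called higher on day 14 than on day 3, at 1.05 ± 0.26 (limma adjusted p = 0.0318). The call of Col6a4 was lost without any 1 of the 3 day 3 resected arrays or without day 14 resected replicate 2 or 3, where the difference was 0.78 to 1.15 (limma adjusted p 0.0507 to 0.148). That of Col5a2 was lost without any 1 array other than mock replicate 3 and day 3 resected replicate 1, where it was -1.80 to -1.10 (limma adjusted p 0.0527 to 0.142), and after quantile normalization (-1.46, limma adjusted p = 0.066). Both were lost with only these groups in the fit (limma adjusted p = 0.0548 and 0.0721). Col6a3 differed by -0.92 ± 0.40 (adjusted p = 0.23), and by -1.49 without day 3 resected replicate 1 (limma adjusted p = 0.00663). Limma called 0 of 8 basement membrane and 0 of 8 fibril-associated chains, with 0 of each at an unadjusted p under 0.05 and differences from -0.52 for Col14a1 and Col4a2 to 0.60 for Col4a3. Of the 15 other chains, 2 had an unadjusted p under 0.05, Col6a3 and Col6a4. Over the whole set 7 members did, 1 higher and 6 lower (16.7% against 18.9% of all clusters).

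Chains of 1 collagen type were also compared with each other within each array, in all 39 pairs that share a type number. Such a difference of levels between chains is not a ratio of transcripts, and it moves between groups where the chains of a pair move unequally. Day 3 resected and mock arrays did not overlap for 8 of the 39 pairs, where single clusters did not overlap in 23% of all clusters. The share over pairs of other genes was not computed, so these counts are a description. Col1a1 minus Col1a2 was -1.34 ± 0.39 in mock, -0.36 ± 0.40 in day 3 resected and -1.08 ± 0.48 in day 14 resected glands (mean ± SD, n = 3), and mock and day 3 did not overlap. Col6a4, whose levels were near or below the negative control median, took part in 5 of the 8 pairs. An example is the pair with Col6a5, at -0.45 to 0.46 in mock and -0.71 to -0.66 in day 3 resected glands. An exact two-sided permutation test of 3 against 3 arrays cannot go below p = 0.1, and the lowest p adjusted over the 39 pairs was 0.4875 for day 3 against mock. For day 14 against mock 2 pairs did not overlap (lowest adjusted p = 0.98 in the exact permutation test), and for day 14 against day 3 11 pairs did not (lowest adjusted p = 0.355 in that test). Single clusters did not overlap in 13% and 25.4% of all clusters in these comparisons.

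Several collagen genes are neighbours in the RefSeq annotation, with 0 protein-coding genes between them. Col3a1 and Col5a2 are adjacent on chromosome 1, both rose on day 3, and both had day 14 arrays above all mock arrays. Col9a1 and Col19a1 are adjacent on the same chromosome and were not called. Col4a1 and Col4a2 differed by -0.09 and 0.30, and Col6a1 and Col6a2, adjacent on chromosome 10, by 0.48 and 0.99. Whether adjacency bears on these values was not tested.

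The 5 chains that rose shared part of their spread between replicates, with each other and with some chains that were not called. The median shift of the 5 chains from their mock means was 2.92, 4.37 and 5.13 in day 3 resected replicates 1 to 3, and 1.47, 0.98 and 0.71 in day 14 resected replicates 1 to 3. Day 3 resected replicate 1 was thus the lowest and day 14 resected replicate 1 the highest array of its group. In deviations from the group means over the 9 arrays, the chains whose values followed those of the other rising chains most closely were Col1a1 (Pearson r = 0.98), Col1a2 (0.91), Col3a1 (0.90) and Col6a3 (0.89), followed by Col5a2, Col6a1 and Col14a1 (0.79, 0.79 and 0.78). Col5a1, also a rising chain, came below these (0.72), and the most negative values were those of Col19a1 and Col20a1 (-0.83 each). These are descriptions across 9 arrays that share their RNA preparations. The rising chains were picked by their day 3 call, and each had its largest SD on the day 3 resected arrays. For Col1a2 it was 1.12 there, beside 0.12 in mock and 0.32 in day 14 resected glands. The deviations were not scaled, so the day 3 resected arrays weigh more in r than the others. The other 6 fibrillar chains had r from -0.33 for Col11a1 to 0.44 for Col27a1.

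**Figure D3:**
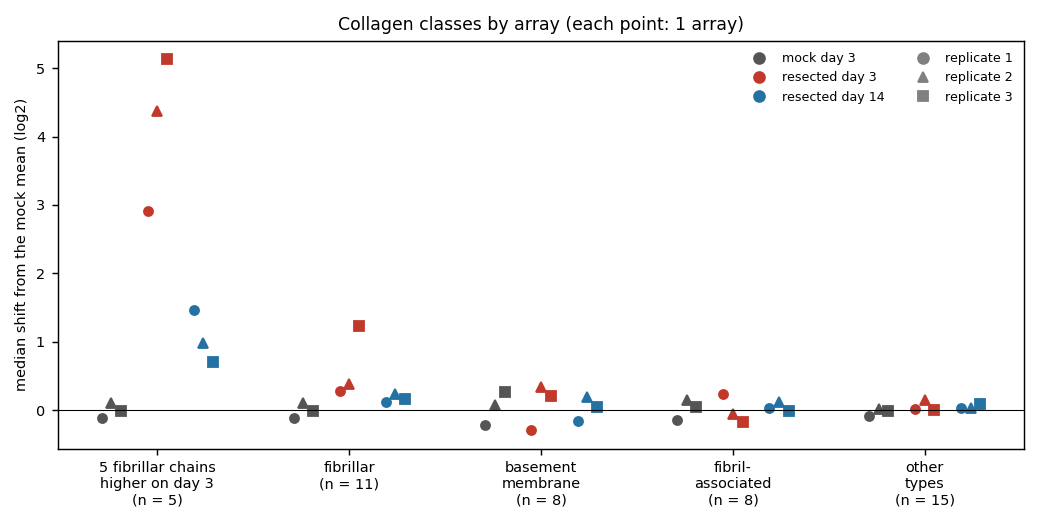
Median shift from the mock mean (log2) on each array for the collagen classes, with the 5 fibrillar chains called on day 3 as a set of their own (chosen by their values, so a description); colours give the group and symbols the replicate. The 5 chains lie at 2.92 to 5.13 on the day 3 resected arrays and 0.71 to 1.47 on the day 14 resected arrays, while the medians of the basement membrane, fibril-associated and other classes lie between -0.29 and 0.34 on all 9 arrays.

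Collagen chains need a series of helper proteins, and these were examined from a list of folding, processing and crosslinking enzymes. On day 3, 6 of 28 measured genes rose and 1 fell (median 0.26, beside -0.06 over all clusters). Of all clusters, 4.92% were called higher and 1.36% lower. Lox, which encodes the enzyme that crosslinks fibrillar collagen, rose most, by 4.49 ± 0.35 (limma adjusted p = 1.18e-05), from 4.85, 4.5 and 5.14 in mock to 8.69, 9.10 and 10.19 in day 3 resected glands. Serpinh1, the collagen chaperone HSP47, rose by 2.51 ± 0.39, and the related crosslinker Loxl1 by 2.19 ± 0.32. The others that rose were Loxl3, the procollagen C-proteinase Bmp1 and its enhancer Pcolce. The gene that fell was Tll1, a relative of Bmp1, by 2.07 ± 0.22. The hydroxylase genes P4ha1, P4ha2 and Plod2, named after their values were seen, were not called on day 3 (1.35 ± 0.46, 0.77 ± 0.28 and 1.81 ± 0.52).

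On day 14 against mock limma called 0 of 28 (0.153% of all clusters), with 2 at an unadjusted p under 0.05, and Lox differed by -0.12 ± 0.35. Against day 3 resected glands, 9 of 28 fell and 1, Tll1, rose, and the 9 that fell included P4ha1, P4ha2 and Plod2. Of all clusters, 4.88% were called lower and 1.4% higher there. Lox fell by 4.62 ± 0.35.

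Of 8 measured collagen receptor genes, 2 rose on day 3 and 0 fell, where 4.92% of all clusters were called higher and 1.36% lower. They were Mrc2, which encodes an endocytic receptor for collagen fragments (1.45 ± 0.26), and Lair1, an inhibitory receptor of leukocytes (1.32 ± 0.25). The adhesion receptor genes Itgb1, Itga2 and Itga11 and the collagen-binding kinases Ddr1 and Ddr2 were not called, with differences from -0.20 to 0.62. Of 7 genes for proteases that cleave collagen, 5 rose and 0 fell, among them Mmp14 (2.61 ± 0.37), Mmp2 (2.07 ± 0.34) and Mmp9 (1.55 ± 0.35). On day 14 against mock limma called 0 of 8 receptors and 0 of 7 proteases (0.153% of all clusters), with 0 and 1 at an unadjusted p under 0.05. Against day 3 resected glands, 2 receptors fell (Mrc2 and Lair1) and 2 proteases fell (Mmp14 and Ctsk), where 4.88% of all clusters were called lower.

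**Figure D4:**
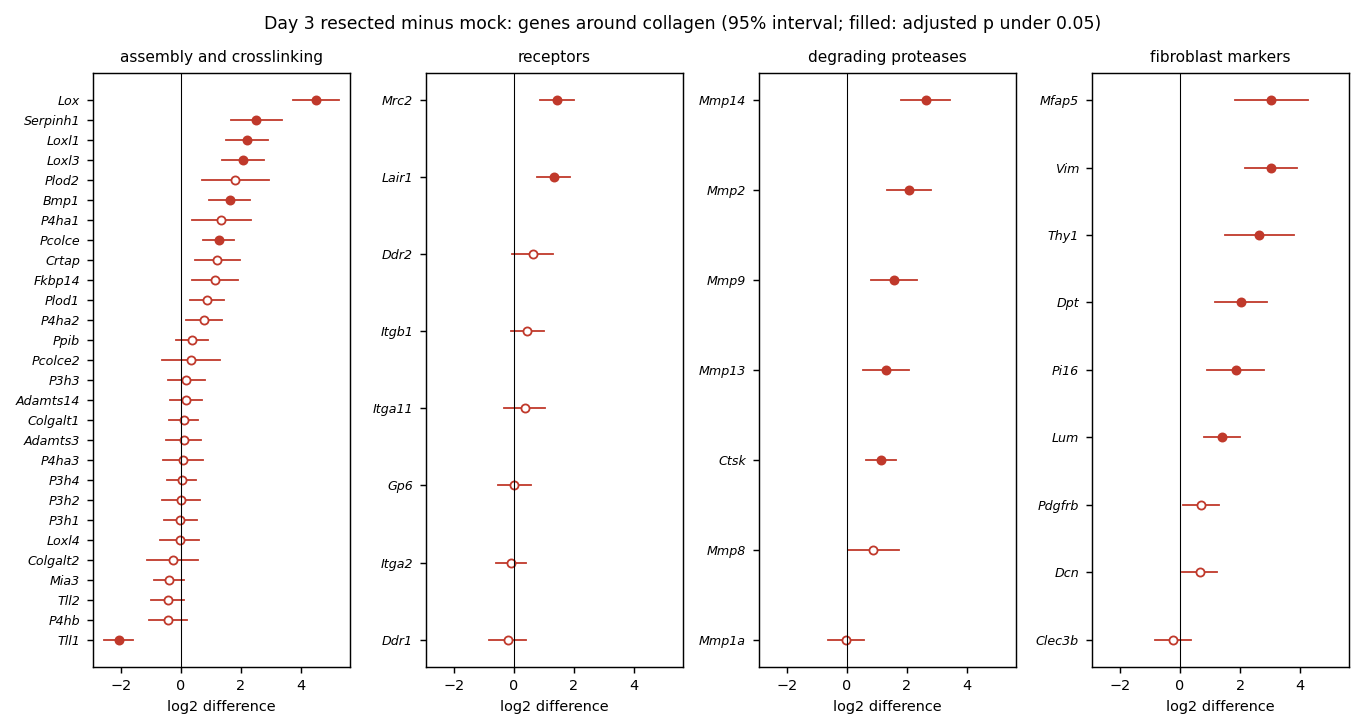
Log2 differences between day 3 resected and mock glands with 95% intervals for genes of collagen assembly and crosslinking, collagen receptors, collagen-degrading proteases and fibroblast markers; filled points have an adjusted p under 0.05. Lox lies at 4.49 and Tll1 at -2.07, 5 of 7 proteases are filled, and 6 of 9 fibroblast markers are filled.

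Markers of cell types were measured beside the collagens. For their day 3 counts, the shares of all clusters called were 4.92% higher and 1.36% lower. Of 9 fibroblast markers, 6 rose on day 3, led by Mfap5 (3.04 ± 0.56), Vim (3.02 ± 0.40) and Thy1 (2.64 ± 0.53), and their mean level was 9.18 to 10.28 on mock, 10.95 to 12.01 on day 3 resected and 10.10 to 10.47 on day 14 resected arrays. Day 3 resected replicate 1 was the lowest of its group in these markers and in the 5 fibrillar chains. On day 3 and day 14 after resection the 3 arrays had the same order in the fibroblast markers as in the median shift of the 5 chains. The marker levels were 10.95, 11.36 and 12.01, then 10.47, 10.19 and 10.10. That day 3 order was not particular to fibroblast markers. It also held for the mean levels of macrophage (11.72, 11.83 and 12.26), endothelial, pericyte and smooth muscle, and myoepithelial and basal markers. Schwann cell, skeletal muscle, adipocyte, and cartilage and bone markers had other orders. Beside the fibroblast markers, only the Schwann cell markers among these lists had the order of the chains on day 14. Among mock arrays, replicate 1 was the highest in the fibroblast markers (10.28) and replicate 2 in the median shift of the chains (0.11). All 5 measured macrophage markers rose as well, from a mean level of 8.06 to 9.0 in mock to 11.72 to 12.26 in day 3 resected glands. The part of fibroblasts, macrophages or any other cell type in the collagen differences was not tested.

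Of 8 endothelial markers limma called 0, with 2 at an unadjusted p under 0.05 (mean level 5.52 to 5.76 in mock, 5.98 to 6.23 in day 3 resected glands), and of 7 pericyte and smooth muscle markers 1 fell, Myh11, by 1.07 ± 0.26. On day 3 limma called 0 of 6 myoepithelial and basal, 0 of 4 Schwann cell, 0 of 7 skeletal muscle, 0 of 6 adipocyte and 0 of 9 cartilage and bone markers, with 1, 3, 0, 0 and 2 at an unadjusted p under 0.05. Dcpp3, a product of the sublingual gland, was the 1 measured gene of the list of sublingual markers. It read 5.80 to 8.17 in mock, 16.70, 7.80 and 19.69 in day 3 resected and 14.05 to 19.71 in day 14 resected glands. On the same 3 day 3 resected arrays Col1a1 read 10.83, 13.06 and 13.53. The part of sublingual tissue in the collagen values was not tested.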

How the data were processed

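The deposited values are log2 expression per transcript cluster, made by the authors from Clariom S arrays with Transcriptome Analysis Console 4.0 and RMA, per the labels and the submitters' processing notes. RMA subtracts background, equalises array distributions and summarises probes, so values are relative, dim genes are compressed and no detection calls exist. For the genome build of the deposited table the sources used here give no name. Of 28846 rows, 6640 control rows were left out and 22206 clusters were tested with limma 3.58.1 (R 4.3.3), all 9 arrays in 1 fit with a mean per group, two-sided, 3 comparisons. The number of arrays limits the precision, and p-values measure the spread between the labels' biological replicates. The platform annotation named 19572 clusters. Members, classes and lists were chosen with earlier results of these data known. Named with values were chains past the threshold, all chains of types I and III to VI, and the highest and lowest of each class; values of the remaining chains were added after they were seen. Of 117 listed other genes, 103 were measured. Fits were tested on simulated data. Alternatives were scaling, a dim filter, variance models, array weights, a replicate block and leaving out arrays.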

Additional observations from a re-analysis of the deposited data

Results flagged for a closer look

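For 6 chains limma called a difference between day 14 and day 3 resected glands. The changes were -3.92 for Col1a1, -3.20 for Col1a2, -2.98 for Col3a1, -1.78 for Col5a1, -1.62 for Col5a2 and 1.05 for Col6a4. With 1 array left out, the call of Col5a2 held in 2 of 9 fits and that of Col6a4 in 4 of 9. Day 14 had no mock glands, so time since surgery is not separated from these changes. Groups of 3 arrays are too small for a check on single outlying arrays.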

How the results depend on the processing

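The 5 day 3 calls held in all alternatives, with ranges of 4.59 to 5.95 for Col1a1, 3.64 to 4.75 for Col1a2, 4.30 to 5.18 for Col3a1, 1.53 to 2.13 for Col5a1 and 2.21 to 3.30 for Col5a2. Members called numbered 5 to 6, 0 and 4 to 6 in the 3 comparisons. Members had 1 cluster each, so the choice of cluster could not matter. Same-numbered arrays shared only a number (correlation of deviations from group means -0.09 to 0.05), and with the replicate number as a block, members called stayed at 5, 0 and 6, and all clusters called were 1283, 26 and 1297. Trend and robust variances called 77 clusters on day 14 against mock, where 34 were called. Below, the cause was not tested unless fewer members were used by construction.

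The fibrillar median without the dimmest 30% of clusters was 0.95 on day 3 and -0.85 between the days. Both this filter and the next use the mean over all arrays, so a change can decide which members are kept: Col5a1 passes the first at percentile 30.3 with a mock mean of 3.14, and Col1a1 and Col6a2 pass the second with mock means of 7.35 and 7.85, below its limit of 7.99. These medians therefore support nothing. Over members above the 95th percentile of negative controls it was 4.69 on day 3, 1.20 on day 14 and -3.20 between the days. That of other types was 1.03, 0.35 and -0.68, and no basement membrane or fibril-associated member is that bright. The median of other types was -0.085 on day 3 after centring and 0.12 without dim clusters, and between the days -0.044 (quantile), 0.090 (centring) and -0.073 (without dim clusters). Leaving out 1 array gave day 3 medians of -0.054 to 0.32 (basement membrane), -0.13 to 0.14 (fibril-associated), 0.12 to 0.72 (fibrillar, from without day 3 resected replicate 3 to without replicate 1) and -0.053 to 0.11 (other), and -0.11 to 0.053 for other types between the days.

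Signs turned in these alternatives for uncalled differences. On day 3 quantile normalization gave 0.048 for Col4a5, 0.014 for Col5a3, -0.012 for Col9a3, 0.035 for Col10a1, -0.12 for Col20a1 and 0.0079 for Col26a1, array weights 0.044 for Col4a5, and centring -0.011 for Col4a6, -0.028 for Col20a1 and -0.0056 for Col9a2. On day 14 quantile normalization gave 0.0053 for Col11a2, -0.018 for Col4a1 and -0.0090 for Col5a1, centring -0.0046 for Col4a1 and -0.014 for Col5a1 and -0.0051 for Col8a2, and array weights -0.031 for Col5a1 and 0.042 for Col6a6. Between the days quantile normalization gave -0.067 for Col25a1.

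Over all 42 chains, leaving out 1 array turned signs on day 3 in Col10a1 (-0.17 to 0.10), Col11a1 (-0.38 to 0.17), Col20a1 (-0.15 to 0.19), Col22a1 (-0.064 to 0.42), Col24a1 (-0.024 to 0.29), Col26a1 (-0.19 to 0.086), Col28a1 (-0.15 to 0.13), Col2a1 (-0.35 to 0.039), Col4a1 (-0.41 to 0.36), Col4a5 (-0.24 to 0.35), Col4a6 (-0.11 to 0.20), Col5a3 (-0.25 to 0.048), Col6a5 (-0.30 to 0.089), Col8a1 (-0.0085 to 0.45), Col8a2 (-0.021 to 0.58), Col9a1 (-0.19 to 0.16), Col9a2 (-0.18 to 0.20) and Col9a3 (-0.020 to 0.31). On day 14 it did so in Col11a1 (-0.47 to 0.089), Col11a2 (-0.15 to 0.094), Col13a1 (-0.067 to 0.19), Col15a1 (-0.41 to 0.23), Col16a1 (-0.044 to 0.28), Col17a1 (-0.25 to 0.0093), Col25a1 (-0.30 to 0.077), Col26a1 (-0.12 to 0.35), Col27a1 (-0.041 to 0.57), Col4a1 (-0.31 to 0.47), Col4a3 (-0.46 to 0.023), Col4a4 (-0.13 to 0.078), Col5a1 (-0.25 to 0.21), Col6a1 (-0.0048 to 0.18), Col6a3 (-0.050 to 0.30), Col6a4 (-0.12 to 0.34), Col6a5 (-0.18 to 0.21), Col6a6 (-0.55 to 0.26), Col8a1 (-0.21 to 0.25), Col8a2 (-0.069 to 0.11) and Col9a1 (-0.068 to 0.28). Between the days it did so in Col11a1 (-0.29 to 0.13), Col17a1 (-0.058 to 0.20), Col18a1 (-0.056 to 0.41), Col22a1 (-0.097 to 0.39), Col24a1 (-0.092 to 0.28), Col25a1 (-0.14 to 0.23), Col26a1 (-0.030 to 0.41), Col27a1 (-0.38 to 0.23), Col4a1 (-0.025 to 0.31), Col5a3 (-0.20 to 0.029), Col6a1 (-0.88 to 0.046), Col6a5 (-0.058 to 0.23), Col8a2 (-0.57 to 0.034) and Col9a2 (-0.042 to 0.36). Signal below the negative control median limits what can be seen for 17 chains. Only 5 of the 42 had a mean above the 95th percentile of negative controls, so the others are limited as well.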
